A study of Mus musculus with 6 samples.

Results

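The C-type lectin receptors described here are the 48 genes of the table whose symbols name them as Clec genes with a number and letter, Cd209a to Cd209g or numbered Colec genes, together with Mrc1, Mrc2, Mgl2, Ly75, Cd207, Cd69 and Olr1. They are 48 of 23284 gene symbols and were chosen by symbol, without use of their values. The libraries come from poly(A) RNA of lung, 1 library per mouse, from 6 mice aged 6 weeks on the C57BL/6 background. The transgenic group (Fra-2tg) is 3 of these mice, and their 3 littermates without the transgene are the wild-type group. No treatment is named for either. Fra-2 is the AP-1 family transcription factor that Fosl2 encodes, and the labels do not name the promoter that drives the transgene. Values are FPKM, fragments scaled to transcript length and to library size, so levels can be set side by side between genes. Comparisons between libraries depend on how the libraries are scaled, and results with another scaling are given below.

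C-type lectin receptors carry a fold first described as a calcium-dependent sugar-binding domain. Some, such as Dectin-1, Dectin-2 and the mannose receptor, bind sugars of fungi, mites and damaged tissue on macrophages and dendritic cells, and signal through Syk and Card9 or take up their ligand. Others hold inhibitory motifs, bind proteins on natural killer cells or platelets, sit on endothelium, or are secreted into the matrix or the blood.

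Read numbers per library are not given in the deposited table, so depth is unknown and no interval for counting error can be drawn. Between 13634 and 13785 genes reached 1 FPKM in a library. Fosl2, the gene the transgene is named for, overlapped between the groups, at 11.1, 13.9 and 11.2 FPKM across the wild-type mice, against 12.3, 17.4 and 15.8 FPKM across the transgenic mice. Fosl1, which encodes the related factor Fra-1, separated the groups at 0.0271, 8.23 and 0.0631 FPKM, against 39.9, 44.4 and 46.0 FPKM. Wild type replicate 2 thus stood apart from the other wild-type libraries, on the side of the transgenic group. Sftpc and Scgb1a1, among the most abundant lung messages, are listed at 0 in some libraries, so a listed 0 is not read as absence. Sftpc was at 0 in all 3 transgenic libraries, while the lung surfactant gene Sftpd was at 632 FPKM or more in every library. Glycam1, from lymph node venules, was at 40.4 FPKM in wild type replicate 1 and at 0.348 FPKM or less in the others.

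C-type lectin receptors changed in both directions in Fra-2tg lung, and several kinds of receptor held members on both sides. In the mannose, galactose-type, DC-SIGN and Dectin-2 groups 11 of 20 tested members rose and 2 fell, and the log2 fold change of FPKM + 1 was largest in Mgl2 (4.52-fold), Cd207 (6.19-fold) and Cd209d (7.17-fold). Among the members called lower were the platelet receptor Clec1b, the Clec2 ligands Clec2d and Clec2i and the endothelial Clec14a, which fell to 0.278 times its wild-type mean. Of the 48 members, 38 had a mean of at least 0.5 FPKM and were tested, 16 were called higher, 11 lower and 11 not called (limma, adjusted p under 0.05 over all 14855 tested genes). All 27 called members had groups that did not overlap. Among all tested genes 13.6% were called higher, 13.0% lower and 26.7% either way, and in 45.7% the groups did not overlap. The members' shares were 42.1% higher, 28.9% lower and 71.1% either way, which is a description and not a test of the list. The filter let 3 members pass through the level of 1 group alone, namely Cd209e, Cd209f and Clec2g. The median log2 fold change of tested members was 0.11, against 0.0026 over all tested genes.

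Changes are given as log2 fold changes of FPKM + 1 with their standard error, a scale that understates the change of low genes, and as ratios of mean FPKM. In whole lung, a change in the number of cells of a type and a change in RNA per cell cannot be told apart. Gene positions are on GRCm38, from GENCODE. The summed level of all 48 members overlapped between the groups, at 669.6 to 699 FPKM across wild-type lungs and 655 to 676 FPKM across transgenic lungs. Within that sum the order of levels shifted. Clec2d was the most abundant member in both groups, at 183 ± 19.5 FPKM on average in wild-type lungs, against 143 ± 5.46 FPKM in transgenic lungs (SD, n = 3 each). In wild type Clec14a and Clec3b followed, at 113 ± 12.8 and 110.1 ± 5.04 FPKM, a difference within their spread. Mrc2 and Colec12 came after them at 39.9 ± 2.91 and 39.1 ± 4.36 FPKM, which did not differ beyond their spread either. Mgl2 lay at rank 8 of the 38 in wild type and at rank 2 in Fra-2tg. Clec14a went from rank 2 to rank 5.

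Across libraries, wild type replicate 2 stood nearest to the Fra-2tg group in most members. It was the highest wild-type library in 14 of the 16 members called higher and the lowest in 9 of the 11 called lower. Without it, 15 members were called higher and 9 lower. With libraries rescaled to equal sums, leaving out Sftpc and Scgb1a1, the median log2 fold change of all tested genes moved to -0.13, and the calls among all genes went from 2027 higher and 1936 lower to 1148 higher and 3438 lower. Among members they went from 16 higher and 11 lower to 14 higher and 13 lower.

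**Figure D1:**
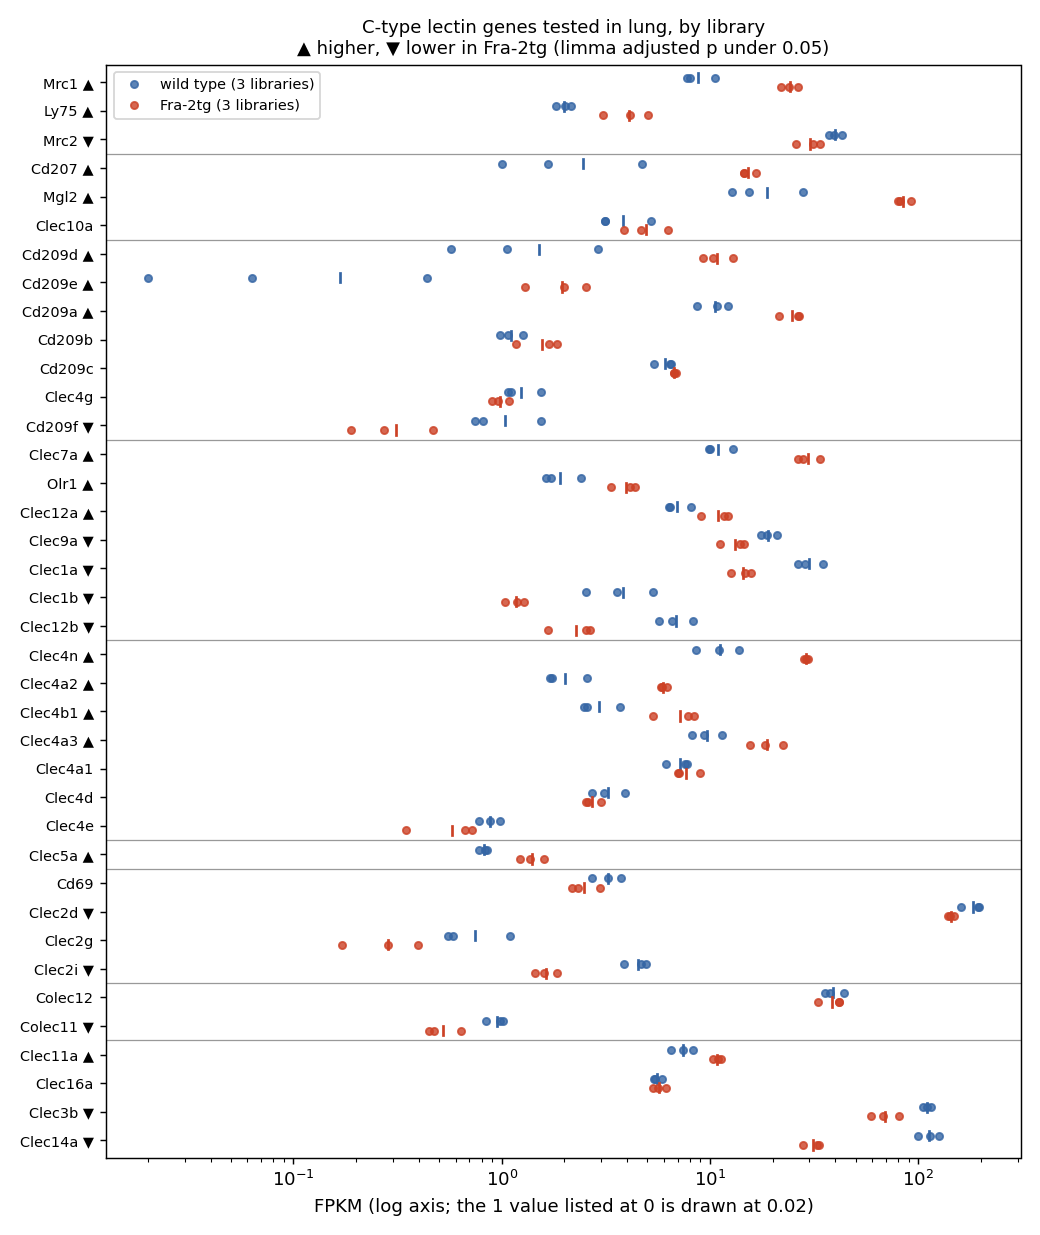
FPKM (log axis) of the 38 tested C-type lectin genes in each of the 3 wild-type (blue) and 3 Fra-2tg (red) libraries, grouped by kind of receptor, with a short line at the mean. Red points lie to the right of all blue points in the 16 genes called higher and to the left in the 11 called lower.

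Promoters of 38 of the 48 members matched the RefSeq table of GRCm38.p6 by symbol (250 bases before to 50 after each gene's start). The AP-1 site TGACTCA or TGAGTCA, which are each other's complement, was searched since Fra-2 belongs to that family. The ETS core GAGGAA, read by PU.1 in myeloid cells, was searched on both strands. The AP-1 letters were in 3 of 15 members called higher (Cd207, Clec4a2 and Olr1), in 1 of 8 called lower (Cd209f) and in 5.9% of all 27025 genes of the table. The ETS core was in 11 of 15 members called higher, in 1 of 8 called lower (Clec14a) and in 31.3% of all genes. Of the 15 matched members that were not called or not tested, 8 held the ETS core and 3 the AP-1 letters. The STAT6 half-sites TTCNNNNGAA were in 3 of 15 members called higher (Cd209e, Clec5a and Clec7a), in 0 of 8 called lower and in 8.0% of all genes. Of all matched genes called higher, 8.6% held the AP-1 letters, 33.8% the ETS core and 7.4% the STAT6 half-sites. Of those called lower, the shares were 5.3%, 33.5% and 6.3%. A match is a description of these letters, not evidence of binding.

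Promoters are shown for Cd207 and Olr1, which rose and hold both the AP-1 site and the ETS core, for Mrc1, which rose and holds 3 ETS cores, and for Clec14a, which had the largest fall among the tested members. Capitals mark the AP-1 site and the ETS core in either direction (TTCCTC is its complement). Sequences are 5′ to 3′ on the gene's strand, from RefSeq GRCm38.p6 (Cd207 at chr6:83677808-83678107, minus strand; Olr1 at chr6:129507116-129507415, minus strand; Mrc1 at chr2:14229164-14229463, plus strand; Clec14a at chr12:58269209-58269508, minus strand).
Cd207: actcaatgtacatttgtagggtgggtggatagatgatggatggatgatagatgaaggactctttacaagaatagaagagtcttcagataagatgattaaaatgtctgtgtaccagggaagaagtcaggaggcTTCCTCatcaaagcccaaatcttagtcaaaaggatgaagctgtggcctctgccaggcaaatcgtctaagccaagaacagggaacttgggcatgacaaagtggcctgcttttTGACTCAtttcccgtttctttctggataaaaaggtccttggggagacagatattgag
Olr1: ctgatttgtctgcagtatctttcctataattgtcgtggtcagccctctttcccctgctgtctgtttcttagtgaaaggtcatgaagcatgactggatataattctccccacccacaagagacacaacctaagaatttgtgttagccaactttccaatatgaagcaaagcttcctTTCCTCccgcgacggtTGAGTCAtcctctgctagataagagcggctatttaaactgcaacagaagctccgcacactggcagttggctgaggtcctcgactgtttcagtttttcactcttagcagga
Mrc1: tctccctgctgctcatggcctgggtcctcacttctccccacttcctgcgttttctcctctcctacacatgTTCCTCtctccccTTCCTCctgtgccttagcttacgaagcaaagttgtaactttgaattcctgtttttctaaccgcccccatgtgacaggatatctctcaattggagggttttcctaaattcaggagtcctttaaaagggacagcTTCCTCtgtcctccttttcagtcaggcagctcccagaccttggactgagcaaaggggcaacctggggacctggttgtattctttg
Clec14a: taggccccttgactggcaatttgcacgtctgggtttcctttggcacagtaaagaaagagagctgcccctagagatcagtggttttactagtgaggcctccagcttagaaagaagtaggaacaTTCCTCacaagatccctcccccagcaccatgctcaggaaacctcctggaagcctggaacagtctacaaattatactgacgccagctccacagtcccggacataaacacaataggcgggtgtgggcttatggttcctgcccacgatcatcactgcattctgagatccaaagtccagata
In Cd207 the AP-1 letters end at the base before the annotated start, with their first base at -7. In Olr1 they begin at -60, with an ETS core at -76. The 3 cores of Mrc1 begin at -180, -167 and -35, and that of Clec14a at -128.

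The mannose receptor family, large endocytic receptors with several lectin domains in a row, changed in both directions. Its 3 members were all tested, with 2 higher and 1 lower. Mrc1, the mannose receptor CD206 of macrophages and some endothelium (chromosome 2, 14229392 to 14332057), was 8.04, 10.5 and 7.76 FPKM across the wild-type mice, against 21.9, 24.0 and 26.6 FPKM across the transgenic mice. Every Fra-2tg value lay above every wild-type value, with a log2 fold change of 1.37 ± 0.12 (SE) and limma adjusted p = 0.00147. Ly75 (DEC-205), a dendritic cell receptor for antigen uptake, was 2.01, 2.15 and 1.83 FPKM across the wild-type mice, against 3.07, 4.14 and 5.06 FPKM across the transgenic mice. It rose 2.05-fold (0.75 ± 0.15, limma adjusted p = 0.0130), and this call was lost without wild type replicate 3 (limma adjusted p = 0.0508). Mrc2 (Endo180), a collagen uptake receptor of fibroblasts, was 37.3, 43.1 and 39.4 FPKM across the wild-type mice, against 33.8, 25.9 and 31.2 FPKM across the transgenic mice. Its fall to 0.758 of the wild-type mean (-0.39 ± 0.11, limma adjusted p = 0.0362) was lost without any wild-type library and without Fra-2tg replicate 2 or 3 (limma adjusted p = 0.0528 to 0.0968). The ratio of Mrc1 to Mrc2 was 0.197 to 0.245 over the wild-type lungs and 0.646 to 0.928 over the transgenic lungs. This and the other ratios between members were chosen after their values were seen and are given as descriptions.

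Among the galactose-type lectins and langerin, 2 of 3 tested members rose. Mgl2 (CD301b, chromosome 11, 70130329 to 70137550), a galactose-type receptor of dendritic cells and alternatively activated macrophages, was 15.4, 27.9 and 12.7 FPKM across the wild-type mice, against 81.6, 91.9 and 80.2 FPKM across the transgenic mice. The groups were far apart, and wild type replicate 2 was the highest of its group (log2 fold change 2.19 ± 0.26, limma adjusted p = 0.00248). Its neighbour Clec10a (CD301a, chromosome 11, 70156197 to 70170834) was 5.21, 3.13 and 3.13 FPKM across the wild-type mice, against 4.65, 6.27 and 3.87 FPKM across the transgenic mice. These values overlapped, with a log2 fold change of 0.31 ± 0.21 and limma adjusted p = 0.316. The longest Mgl2 transcript shares 16.5% of its 50-base words with other genes, mostly Clec10a, so fragments may be split between them. The ratio of Mgl2 to Clec10a was 2.96 to 8.92 over the wild-type lungs and 14.6 to 20.7 over the transgenic lungs. Cd207 (langerin, chromosome 6, 83671215 to 83677857), which Langerhans cells and lung dendritic cells with CD103 carry, was 1.66, 4.72 and 1.00 FPKM across the wild-type mice, against 14.6, 14.5 and 16.6 FPKM across the transgenic mice. It rose in every Fra-2tg library (log2 fold change 2.38 ± 0.36, limma adjusted p = 0.00497). Its ratio of means was 6.19 with all libraries and 11.4 without wild type replicate 2. Clec4f, which marks Kupffer cells of the liver, stayed at or under 0.129 FPKM and was not tested.

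Marker genes of macrophages and dendritic cells moved beside these receptors. Counts of called markers, here and below, stand beside 13.6% called higher and 13.0% lower among all tested genes. These short lists were not tested as sets. Of interstitial macrophage markers, 8 higher and 0 lower of 9 tested were called, with a summed level of 115 to 197 FPKM across wild-type lungs and 401 to 468 FPKM across transgenic lungs. C1qa, a complement gene of tissue macrophages, rose 2.67-fold and Emr1 (F4/80) 2.23-fold (limma adjusted p = 0.00441 and 0.00102). Of alveolar macrophage markers, 5 higher and 0 lower of 8 tested were called, with sums of 443 to 888 FPKM across wild-type lungs and 1804 to 4089.7 FPKM across transgenic lungs. Chi3l3, a chitinase-like protein named after its values were seen, carried most of the difference between these sums. It was 193, 619.6 and 189.9 FPKM across the wild-type mice, against 1470.4, 3678 and 2536 FPKM across the transgenic mice (limma adjusted p = 0.00786). Without Chi3l3 the sums were 250.2 to 269 FPKM in wild-type and 334 to 411 FPKM in transgenic lungs. Most of what was left was Car4, at 172, 186 and 181 FPKM across the wild-type mice, against 213, 239 and 210 FPKM across the transgenic mice (limma adjusted p = 0.0275). In wild type Siglec5 and Krt79 averaged only 3.34 and 6.96 FPKM. The remaining sums therefore follow Car4 and are not read as a level of alveolar macrophages. Whether Car4 came from these cells was not tested. Fabp4 and Krt79 of that list were not called (limma adjusted p = 0.221 and 0.375). Car4, Fabp4 and Krt79 are named outside the rule for named genes. Siglec5 (Siglec-F) rose 1.97-fold (limma adjusted p = 0.00199), while Marco was 5.25 ± 0.475 FPKM on average in wild-type lungs, against 6.07 ± 1.63 FPKM in transgenic lungs (SD, n = 3 each) and was not called (limma adjusted p = 0.520). Of type 2 and pan-dendritic markers, 5 higher and 2 lower of 9 tested were called, with sums of 124 to 216 FPKM across wild-type lungs and 432 to 735 FPKM across transgenic lungs. The chemokine Ccl17, also named after its values were seen, carried most of that difference at 23.4, 100.3 and 17.3 FPKM across the wild-type mice, against 303, 608 and 384 FPKM across the transgenic mice (limma adjusted p = 0.00879). Without Ccl17 the sums were 107 to 119 FPKM in wild-type and 126 to 131 FPKM in transgenic lungs. Ccl22 rose 2.04-fold and the dendritic cell factor Zbtb46 fell to 0.722 of its wild-type mean (limma adjusted p = 0.00245 and 0.0140). The Zbtb46 call was lost without wild type replicate 3 or Fra-2tg replicate 1 (limma adjusted p = 0.0556 and 0.0523). The part of cell numbers in the receptor changes was not tested.

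The DC-SIGN group on chromosome 8 held large rises beside members that were not called. Cd209a (the mouse gene named DC-SIGN, chromosome 8, 3743397 to 3748984), typical of monocyte-derived and some other dendritic cells, was 10.8, 12.2 and 8.68 FPKM across the wild-type mice, against 21.5, 26.6 and 26.4 FPKM across the transgenic mice. Every Fra-2tg library was above every wild-type one, with a log2 fold change of 1.16 ± 0.13 and limma adjusted p = 0.00240. Cd209d (SIGNR3, chromosome 8, 3871824 to 3878555), which binds sugars of mycobacteria, was 1.06, 2.90 and 0.569 FPKM across the wild-type mice, against 9.27, 12.9 and 10.3 FPKM across the transgenic mice. Wild type replicate 2 was again the highest wild-type library (log2 fold change 2.33 ± 0.32, limma adjusted p = 0.00382). The ratio of means for Cd209d was 7.17 with all libraries and 13.3 without wild type replicate 2.

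Cd209e (SIGNR4) was 0.0634, 0.440 and 0 FPKM across the wild-type mice, against 1.29, 2.55 and 1.99 FPKM across the transgenic mice. All Fra-2tg values were higher, with a log2 fold change of 1.33 (limma adjusted p = 0.00537). With a pseudocount of 0.01 FPKM it was 4.77, a size that rests on wild-type values at or near 0 and is not read as the true change. Cd209e passed the filter through the level of the Fra-2tg group alone. Cd209f went the other way, at 1.54, 0.741 and 0.817 FPKM across the wild-type mice, against 0.272, 0.470 and 0.188 FPKM across the transgenic mice (log2 fold change -0.62 ± 0.17, limma adjusted p = 0.0385). That call was lost without wild type replicate 3 and without Fra-2tg replicate 1 or 3 (limma adjusted p = 0.0704 to 0.106). Cd209f shares 38.2% of its 50-base words with other genes, mostly Cd209g, so their values are uncertain. Cd209c was 6.40, 6.51 and 5.39 FPKM across the wild-type mice, against 6.69, 6.69 and 6.84 FPKM across the transgenic mice. Its groups did not overlap, yet the log2 fold change was 0.13 ± 0.08 and was not called (limma adjusted p = 0.282). Cd209b (SIGNR1, a receptor of marginal zone macrophages in spleen) was 1.07, 0.979 and 1.26 FPKM across the wild-type mice, against 1.84, 1.18 and 1.68 FPKM across the transgenic mice and was not called (limma adjusted p = 0.140). When Fra-2tg replicate 2 was left out, Cd209b was called higher (limma adjusted p = 0.0465). Clec4g (LSECtin), known from liver sinusoids, was 1.08, 1.11 and 1.54 FPKM across the wild-type mice, against 0.958, 0.901 and 1.09 FPKM across the transgenic mice and was not called (limma adjusted p = 0.280).

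The Dectin-1 cluster on chromosome 6 was split between neighbouring genes, with 3 of 7 tested members higher and 4 lower. Clec7a (Dectin-1, chromosome 6, 129461591 to 129472779), the macrophage and dendritic cell receptor for fungal beta-glucan, was 10.03, 12.9 and 9.93 FPKM across the wild-type mice, against 28.1, 26.5 and 33.8 FPKM across the transgenic mice. The groups were separate (log2 fold change 1.35 ± 0.13, limma adjusted p = 0.00153). The adjacent Clec1a (chromosome 6, 129424772 to 129452000), an endothelial and myeloid receptor that binds fungal melanin, was 28.8, 26.5 and 34.8 FPKM across the wild-type mice, against 14.7, 12.7 and 15.8 FPKM across the transgenic mice. All its Fra-2tg values were lower (log2 fold change -1.01 ± 0.12, limma adjusted p = 0.00257). The ratio of Clec7a to Clec1a was 0.285 to 0.487 over the wild-type lungs and 1.91 to 2.14 over the transgenic lungs. Olr1 (LOX-1), which takes up oxidised low-density lipoprotein, was 1.62, 2.40 and 1.72 FPKM across the wild-type mice, against 3.36, 4.15 and 4.39 FPKM across the transgenic mice. It rose 2.07-fold (0.77 ± 0.13, limma adjusted p = 0.00779).

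The inhibitory receptors Clec12a and Clec12b changed in opposite directions. Clec12a, an inhibitory myeloid receptor for uric acid crystals, was 6.43, 8.09 and 6.33 FPKM across the wild-type mice, against 12.2, 9.06 and 11.6 FPKM across the transgenic mice. It was called higher (0.59 ± 0.13, limma adjusted p = 0.0201), but not without wild type replicate 1 or 3 or Fra-2tg replicate 1 or 3 (limma adjusted p = 0.0573 to 0.0733). Rescaling to equal library sums ended that call too (limma adjusted p = 0.0548). Clec12b, also an inhibitory receptor, was 6.59, 5.67 and 8.30 FPKM across the wild-type mice, against 2.53, 1.67 and 2.65 FPKM across the transgenic mice, with no overlap (log2 fold change -1.26 ± 0.17, limma adjusted p = 0.00335). Clec9a (DNGR-1), the receptor of type 1 dendritic cells for actin of dead cells, was 18.7, 17.6 and 20.9 FPKM across the wild-type mice, against 13.9, 11.2 and 14.6 FPKM across the transgenic mice. It fell to 0.694 of the wild-type mean (-0.50 ± 0.11, limma adjusted p = 0.0185), and the call was lost without wild type replicate 3 (limma adjusted p = 0.0662). The type 1 dendritic cell markers had 4 higher and 0 lower of 7 tested, among them Itgae (CD103), up 2.92-fold, and Xcr1, up 2.61-fold (limma adjusted p = 0.00199 and 0.0112). Their summed level was 99.99 to 112 FPKM across wild-type lungs and 129.9 to 152 FPKM across transgenic lungs. The part of these cells in the Clec9a value was not tested.

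Clec1b (CLEC-2), the platelet receptor for podoplanin, was 2.53, 3.58 and 5.33 FPKM across the wild-type mice, against 1.28, 1.19 and 1.04 FPKM across the transgenic mice. It fell in every Fra-2tg library (log2 fold change -1.11 ± 0.20, limma adjusted p = 0.00963). The Clec1b and Clec9a genes overlap by 474 bases on the same strand, so their values are uncertain where fragments fall in both. The Clec1b ligand Pdpn, which alveolar type 1 cells and lymphatic endothelium carry, was 87.5 ± 4.32 FPKM on average in wild-type lungs, against 80.6 ± 5.53 FPKM in transgenic lungs (SD, n = 3 each) and was not called (limma adjusted p = 0.262). Of platelet markers, 0 higher and 4 lower of 5 tested were called, with sums of 53.1 to 70.6 FPKM across wild-type lungs and 34.4 to 43.9 FPKM across transgenic lungs. Without Ppbp, which added most to that difference, the sums overlapped at 39.3 to 46.0 FPKM in wild-type and 30.4 to 40.5 FPKM in transgenic lungs. The platelet integrin Itga2b fell to 0.349 of wild type (limma adjusted p = 0.00181), while Pf4 was 31.8 ± 2.09 FPKM on average in wild-type lungs, against 33.2 ± 5.71 FPKM in transgenic lungs (SD, n = 3 each) and was not called (limma adjusted p = 0.820). The part of platelet content in the Clec1b fall was not tested.

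**Figure D2:**
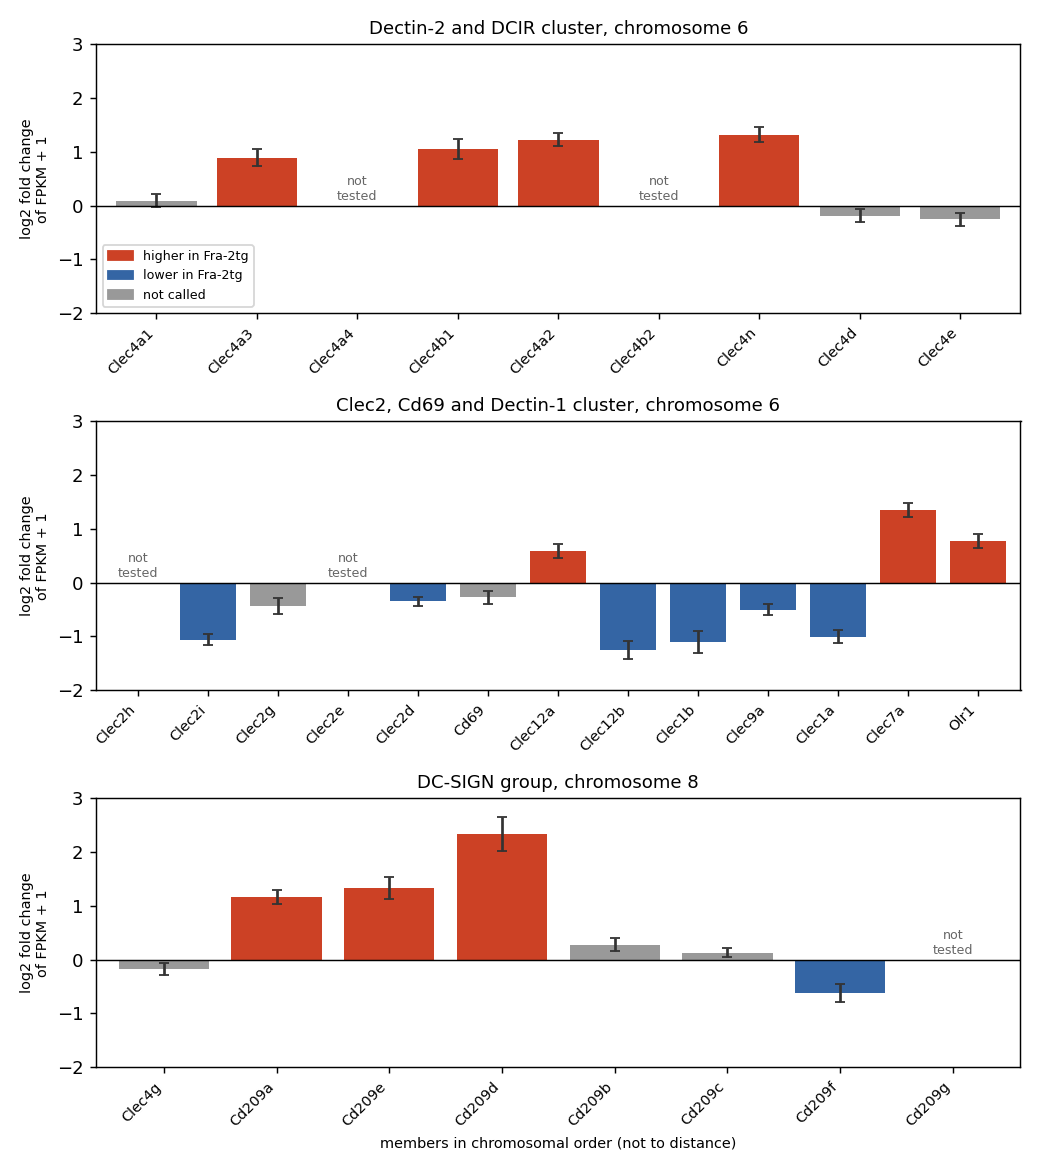
Log2 fold change of FPKM + 1 (Fra-2tg against wild type, bars, ± SE) of members in their order along 3 gene clusters, coloured by call. The Dectin-1 cluster holds called rises beside called falls, where Clec7a is at 1.35 beside Clec1a at -1.01.

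In the Dectin-2 and DCIR cluster, 4 higher and 0 lower of 7 tested members were called, and Clec4d and Clec4e at its far end were not among them. Clec4n (Dectin-2, chromosome 6, 123229843 to 123247021), which binds fungal and mite mannans and pairs with the Fc receptor gamma chain Fcer1g, was 11.02, 13.8 and 8.62 FPKM across the wild-type mice, against 28.8, 29.5 and 28.2 FPKM across the transgenic mice. The Fra-2tg values were close together and all above wild type (log2 fold change 1.32 ± 0.15, limma adjusted p = 0.00215). Clec4d (MCL) and Clec4e (Mincle), receptors for mycobacterial glycolipid, lie next to it. Clec4d was 3.10, 2.72 and 3.91 FPKM across the wild-type mice, against 2.60, 2.54 and 3.01 FPKM across the transgenic mice, with overlapping groups and no call (-0.19 ± 0.12, limma adjusted p = 0.291). Clec4e was 0.774, 0.879 and 0.980 FPKM across the wild-type mice, against 0.347, 0.665 and 0.724 FPKM across the transgenic mice. Its Fra-2tg values were all lower, yet the log2 fold change of -0.26 ± 0.12 was not called (limma adjusted p = 0.163). The ratio of Clec4n to Clec4d was 2.201 to 5.05 over the wild-type lungs and 9.36 to 11.6 over the transgenic lungs.

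The DCIR and DCAR genes encode inhibitory or activating receptors of dendritic cells and monocytes. Clec4a2 (DCIR), which has an inhibitory motif, was 1.71, 2.58 and 1.75 FPKM across the wild-type mice, against 5.85, 5.88 and 6.20 FPKM across the transgenic mice. It rose 2.97-fold (1.22 ± 0.12, limma adjusted p = 0.00166). Clec4a3 was 8.16, 11.5 and 9.35 FPKM across the wild-type mice, against 15.6, 22.3 and 18.4 FPKM across the transgenic mice and rose 1.94-fold (0.89 ± 0.16, limma adjusted p = 0.00839). Clec4b1 (DCAR), an activating receptor, was 2.55, 3.70 and 2.50 FPKM across the wild-type mice, against 5.32, 7.87 and 8.42 FPKM across the transgenic mice. It rose 2.47-fold (1.06 ± 0.18, limma adjusted p = 0.00810), with Fra-2tg replicate 1 the lowest of its group. Clec4a1, at the proximal end, was 6.13, 7.56 and 7.80 FPKM across the wild-type mice, against 7.06, 8.95 and 7.11 FPKM across the transgenic mice. Its groups overlapped (log2 fold change 0.09 ± 0.12, limma adjusted p = 0.602). Between 8.19% and 9.73% of the 50-base words of Clec4a2 and Clec4b1 occur in other genes, so the split of fragments between them is uncertain.

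Clec5a (MDL-1), a myeloid receptor that pairs with Tyrobp (DAP12), was low, at 0.849, 0.828 and 0.782 FPKM across the wild-type mice, against 1.37, 1.22 and 1.59 FPKM across the transgenic mice. It was called higher (0.39 ± 0.09, limma adjusted p = 0.0220), but not without wild type replicate 2 or 3 or Fra-2tg replicate 1 or 3 (limma adjusted p = 0.0540 to 0.0712) or with libraries rescaled to equal sums (0.0599). Clec4d, Clec4e and Clec5a are known from neutrophils and monocytes. Of neutrophil markers, 0 higher and 4 lower of 6 tested were called, with sums of 259 to 631 FPKM across wild-type lungs and 156 to 178 FPKM across transgenic lungs. S100a8 was at 0.313 and Csf3r at 0.290 times wild type (limma adjusted p = 0.0165 and 0.00153). Monocyte markers had 1 higher and 1 lower of 7 tested, with Ccr2 up 2.25-fold and Treml4 at 0.671 times wild type (limma adjusted p = 0.00398 and 0.0298). The Treml4 call was lost without any 1 library except Fra-2tg replicate 2 (limma adjusted p = 0.0519 to 0.0978). Monocyte sums were 100.2 to 153 FPKM across wild-type lungs and 121 to 147 FPKM across transgenic lungs. Their part in these receptors' values was not tested.

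**Figure D3:**
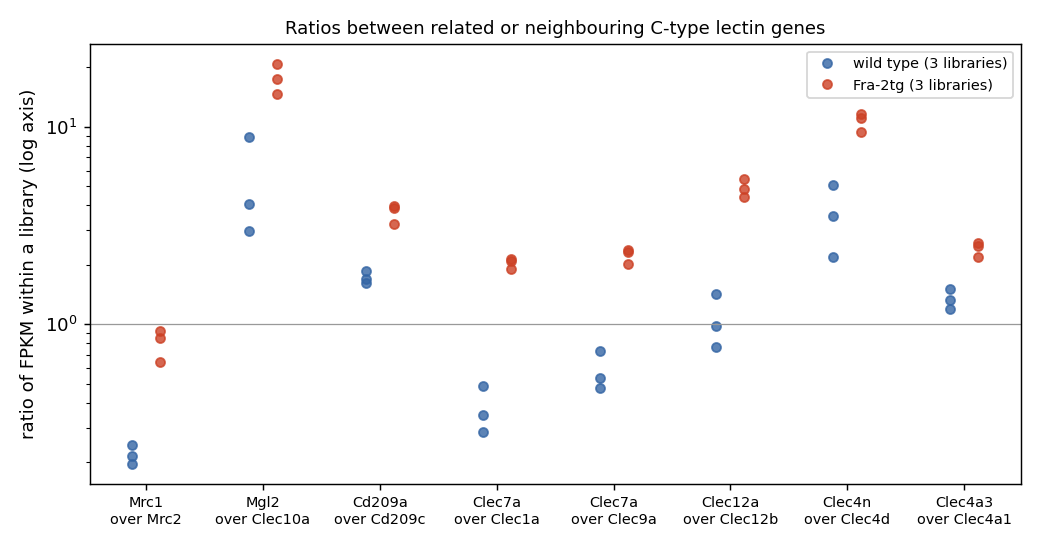
Ratio of FPKM between related or neighbouring members within each library (log axis), for 3 wild-type (blue) and 3 Fra-2tg (red) libraries. In all 8 pairs the Fra-2tg ratios lie above the wild-type ratios, and Clec7a over Clec1a crosses 1, from 0.487 or less to 1.91 or more. The pairs were chosen after their values were seen.

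Of the signalling genes shared by these receptors, 4 of 19 were called, near the share among all tested genes (26.7%). Of these 19 signalling genes, all tested, 3 were higher, 1 lower and 15 not called, with a median log2 fold change of -0.03. The risen genes were the adaptors Tyrobp and Fcer1g, through which receptors without a signalling tail reach Syk, and the kinase Prkcd. Tyrobp was 203, 222 and 179 FPKM across the wild-type mice, against 341, 308 and 309.8 FPKM across the transgenic mice. Fcer1g was 105, 115 and 95.1 FPKM across the wild-type mice, against 152, 146 and 144 FPKM across the transgenic mice. Their log2 fold changes were 0.67 ± 0.10 and 0.49 ± 0.08 (limma adjusted p = 0.00422 and 0.00672), with no overlap. Prkcd, which phosphorylates Card9, rose 1.31-fold (limma adjusted p = 0.00507), and the exchange factor Vav3 fell to 0.6002 of wild type (limma adjusted p = 0.00497). Syk was 17.1 ± 3.20 FPKM on average in wild-type lungs, against 14.8 ± 0.282 FPKM in transgenic lungs (SD, n = 3 each), and Card9 was 11.5 ± 0.342 FPKM on average in wild-type lungs, against 12.2 ± 1.02 FPKM in transgenic lungs (SD, n = 3 each). Neither was called (limma adjusted p = 0.302 and 0.456), and both are named outside the rule for named genes.

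**Figure D4:**
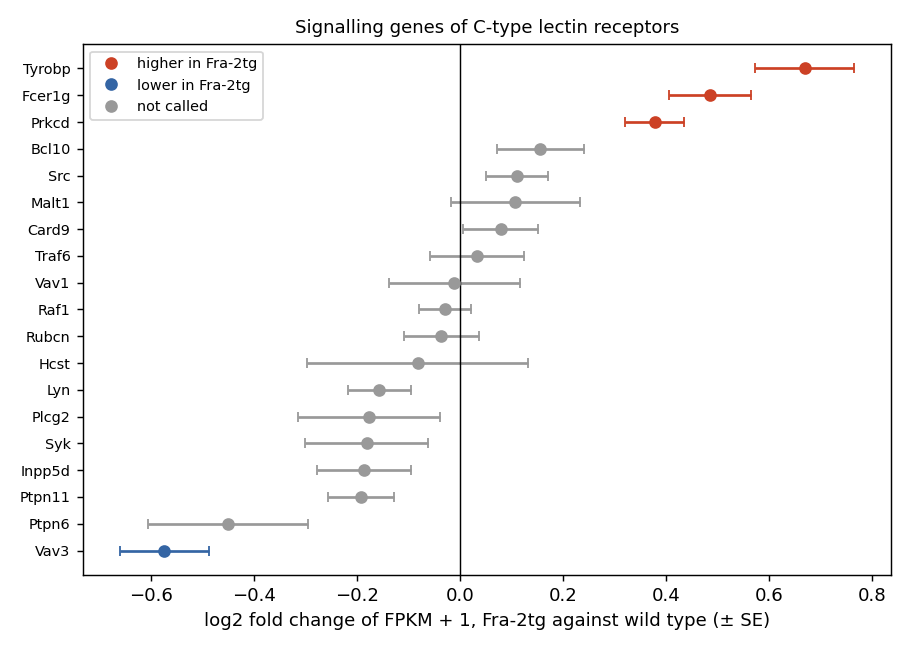
Log2 fold change of FPKM + 1 (points, ± SE) of 19 signalling genes of C-type lectin receptors in Fra-2tg against wild-type lung, coloured by call. Tyrobp, Fcer1g and Prkcd lie to the right at 0.67, 0.49 and 0.38, Vav3 to the left at -0.57, and the other genes were not called.

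Of 10 cytokines that the Syk and Card9 pathway is known to induce, 5 were tested, 1 was called higher and 2 lower. Among all tested genes 13.6% were called higher and 13.0% lower. The other 5, named outside the rule for named genes, were under the filter. Il6 was 0.128, 0.223 and 0.0775 FPKM across the wild-type mice, against 0.942, 0.777 and 0.353 FPKM across the transgenic mice. Il23a was also higher in every transgenic library, at 0.257 FPKM or less. Cxcl2, Il10 and Il2 overlapped between the groups. Csf2 (GM-CSF) was 4.22, 2.79 and 3.59 FPKM across the wild-type mice, against 6.21, 6.18 and 5.36 FPKM across the transgenic mice, 1.67 times wild type in the mean (limma adjusted p = 0.0150), a call that was lost without Fra-2tg replicate 1 (limma adjusted p = 0.0550). Il1b was 9.24, 15.1 and 11.5 FPKM across the wild-type mice, against 5.10, 7.02 and 4.38 FPKM across the transgenic mice and fell to 0.460 of wild type (limma adjusted p = 0.0145), a call lost without the same library (limma adjusted p = 0.0513). Tnf fell to 0.470 of wild type (limma adjusted p = 0.0407), and its call was lost without any 1 library except wild type replicate 2 (limma adjusted p = 0.0635 to 0.122).

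The Clec2 genes, ligands of the NKR-P1 receptors of natural killer cells, and the activation marker Cd69 had 2 of 4 tested members lower and 0 higher. Clec2d (Clr-b, chromosome 6, 129180615 to 129186534), the ligand of the inhibitory receptor Klrb1b, was 194, 161 and 196 FPKM across the wild-type mice, against 138, 149 and 142 FPKM across the transgenic mice. It fell to 0.780 of wild type (-0.35 ± 0.09, limma adjusted p = 0.0303), and the call was lost without any 1 library except wild type replicate 2 (limma adjusted p = 0.0503 to 0.0994). Klrb1b went the other way, at 4.15, 4.41 and 3.80 FPKM across the wild-type mice, against 7.97, 6.68 and 8.28 FPKM across the transgenic mice (log2 fold change 0.75 ± 0.10, limma adjusted p = 0.00294). Clec2i (Clr-g), a ligand of Klrb1f, was 4.91, 3.88 and 4.68 FPKM across the wild-type mice, against 1.59, 1.45 and 1.84 FPKM across the transgenic mice. Its fall was the clearest of the group (log2 fold change -1.06 ± 0.10, limma adjusted p = 0.00169). The Clec2i gene overlaps BC035044 on the opposite strand and shares 5.83% of its 50-base words with other genes. Klrb1f was 0.644 ± 0.144 FPKM on average in wild-type lungs, against 0.570 ± 0.0583 FPKM in transgenic lungs (SD, n = 3 each) and was not called (limma adjusted p = 0.674). Clec2g was 1.10, 0.550 and 0.584 FPKM across the wild-type mice, against 0.283, 0.171 and 0.397 FPKM across the transgenic mice. The groups were apart, but the log2 fold change of -0.43 ± 0.15 was not called (limma adjusted p = 0.0727).

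Cd69, a receptor of activated lymphocytes that holds back the exit receptor S1pr1, was 3.25, 3.72 and 2.70 FPKM across the wild-type mice, against 2.18, 2.97 and 2.31 FPKM across the transgenic mice. The groups overlapped and it was not called (-0.28 ± 0.13, limma adjusted p = 0.155). S1pr1 was 99.2 ± 8.65 FPKM on average in wild-type lungs, against 113 ± 21.6 FPKM in transgenic lungs (SD, n = 3 each) and was not called either (limma adjusted p = 0.410). With libraries rescaled to equal sums, Cd69 and Clec2g were called lower (limma adjusted p = 0.0429 and 0.0493). Natural killer cell markers had 0 higher and 4 lower of 5 tested, with sums of 33.2 to 53.2 FPKM across wild-type lungs and 3.27 to 18.9 FPKM across transgenic lungs. Ncr1 was 3.92, 2.48 and 2.80 FPKM across the wild-type mice, against 0.155, 0.0597 and 0.0248 FPKM across the transgenic mice (limma adjusted p = 0.00102). Klrb1c was 3.64, 2.76 and 2.99 FPKM across the wild-type mice, against 0.315, 0.325 and 0.135 FPKM across the transgenic mice (limma adjusted p = 0.000678). Klrb1a was at 0.494 times wild type (limma adjusted p = 0.0475), a call lost without any 1 library except wild type replicate 2 (limma adjusted p = 0.0718 to 0.139). T cell markers had 1 higher and 1 lower of 5 tested, with Cd3g up 1.64-fold (limma adjusted p = 0.00368) and Cd3e at 9.67 ± 1.54 FPKM on average in wild-type lungs, against 11.2 ± 0.803 FPKM in transgenic lungs (SD, n = 3 each), not called (limma adjusted p = 0.214). B cell markers had 0 higher and 5 lower of 5 tested, with Cd79a at 0.196 times wild type (limma adjusted p = 0.00321). Cd79a was 98.9, 47.5 and 59.8 FPKM across the wild-type mice, against 16.4, 14.3 and 9.74 FPKM across the transgenic mice. Plasmacytoid dendritic cell markers had 0 higher and 1 lower of 3 tested. The lower one was Ly6d, at 66.2, 29.5 and 38.9 FPKM across the wild-type mice (limma adjusted p = 0.00522). Its wild-type libraries stood in the same order as those of Cd79a. Siglech, the defining marker of that list, was not called (limma adjusted p = 0.350). Lymph node markers had 0 higher and 2 lower of 6 tested, Cxcr5 and Fcer2a. The sums of lymph node markers were 57.2 to 155 FPKM across wild-type lungs and 63.1 to 71.7 FPKM across transgenic lungs. Without Glycam1, which was high in wild type replicate 1 alone, they were 57.2 to 114 FPKM and 62.7 to 71.6 FPKM. No eosinophil marker reached the filter. The part of lymphocytes and natural killer cells in these members was not tested.

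Of the endothelial, secreted and other members, 2 of 4 tested were called lower and 1 higher. Clec14a (chromosome 12, 58264720 to 58269290), an endothelial receptor of vessel growth, was 114, 99.8 and 125 FPKM across the wild-type mice, against 33.6, 27.8 and 32.6 FPKM across the transgenic mice. It had the largest fall of the tested members (log2 fold change -1.81 ± 0.11, limma adjusted p = 0.000430). Its ligand Mmrn2, a matrix protein of vessels, was 14.9, 17.6 and 16.3 FPKM across the wild-type mice, against 24.1, 24.6 and 24.1 FPKM across the transgenic mice and rose 1.49-fold (limma adjusted p = 0.00278). Vascular endothelial markers had 1 higher and 3 lower of 8 tested, with sums of 1909 to 2063 FPKM across wild-type lungs and 1526 to 1688 FPKM across transgenic lungs. Pecam1 was 297 ± 16.7 FPKM on average in wild-type lungs, against 298 ± 4.60 FPKM in transgenic lungs (SD, n = 3 each) and was not called (limma adjusted p = 0.955), while Plvap fell to 0.380 of wild type (limma adjusted p = 0.00197). Emcn (endomucin), named after its values were seen, rose 2.53-fold (limma adjusted p = 0.00205), against the direction of Clec14a. Without Plvap the vascular sums were 1519 to 1651 FPKM in wild-type and 1391 to 1509 FPKM in transgenic lungs. Lymphatic markers had 0 higher and 1 lower of 3 tested, with Flt4 at 0.701 times wild type (limma adjusted p = 0.0188) and sums of 88.8 to 107 FPKM across wild-type lungs and 60.7 to 89.6 FPKM across transgenic lungs. The Flt4 call was lost without wild type replicate 1 or 3 (limma adjusted p = 0.0508 to 0.0630), and Mmrn1 of that list was listed at 0 in every library. The part of vessel cells in the Clec14a fall was not tested.

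Clec3b (tetranectin), a secreted protein that binds plasminogen, was 115, 105 and 110.0 FPKM across the wild-type mice, against 81.2, 59.2 and 67.5 FPKM across the transgenic mice. It fell to 0.629 of wild type (-0.67 ± 0.11, limma adjusted p = 0.00757). Clec11a (osteolectin), a secreted growth factor of bone marrow stroma, was the member called higher, at 8.29, 7.45 and 6.48 FPKM across the wild-type mice, against 11.3, 10.9 and 10.3 FPKM across the transgenic mice. It rose 1.47-fold (0.50 ± 0.09, limma adjusted p = 0.00963). Fibroblast markers had 2 higher and 3 lower of 5 tested, with sums of 485 to 605 FPKM across wild-type lungs and 613 to 812 FPKM across transgenic lungs. Without Col1a2, which added most to that difference, the sums overlapped at 334 to 386 FPKM in wild-type and 311 to 412 FPKM in transgenic lungs. Clec16a, which despite its name acts inside cells in autophagy, was 5.38, 5.43 and 5.87 FPKM across the wild-type mice, against 5.62, 5.32 and 6.18 FPKM across the transgenic mice and was not called (limma adjusted p = 0.791).

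The collectins, soluble or membrane lectins with a collagen-like stem, had 0 of 2 tested members higher and 1 lower. Colec11, which starts the lectin pathway of complement with the Masp proteases, was 1.01, 0.844 and 0.981 FPKM across the wild-type mice, against 0.449, 0.473 and 0.640 FPKM across the transgenic mice. It was called lower (-0.36 ± 0.09, limma adjusted p = 0.0347), but not without any 1 library except Fra-2tg replicate 3 (limma adjusted p = 0.0535 to 0.107). Colec12, a scavenger receptor of endothelium, was 35.5, 44.0 and 37.9 FPKM across the wild-type mice, against 41.5, 32.9 and 41.6 FPKM across the transgenic mice. Its values overlapped and it was not called (-0.02 ± 0.12, limma adjusted p = 0.919).

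The 10 members under 0.5 FPKM in the mean were Clec2e, Clec2h, Clec2l, Clec3a, Clec4a4, Clec4b2, Clec4f, Clec18a, Cd209g and Colec10. Their highest value was 0.674 FPKM, in Cd209g. Cd209g was 0.674, 0.465 and 0.406 FPKM across the wild-type mice, against 0, 0.108 and 0.0317 FPKM across the transgenic mice. Clec4b2 was 0.0599, 0.0690 and 0.0734 FPKM across the wild-type mice, against 0.270, 0.463 and 0.386 FPKM across the transgenic mice. Clec2l was 0.136, 0.177 and 0.0768 FPKM across the wild-type mice, against 0.339, 0.359 and 0.303 FPKM across the transgenic mice. In all 3 the groups were apart, and with no filter on low values they were called, Cd209g lower and the other two higher (limma adjusted p = 0.0249, 0.0249 and 0.0262). The remaining 7 were not called with no filter. Clec3a and Clec18a had no transgenic library above 0 and no wild-type library above 0.0521 FPKM.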

How the data were processed

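Lung RNA of 6 mice was sequenced as stranded poly(A) libraries. The authors' deposited table holds FPKM per gene symbol. The submitters' processing notes name FastQC, TopHat2 2.0.10, Bowtie 1.0.0, SAMtools 0.1.19, Cufflinks 2.2.1 and GRCm38. Whether strand was used to assign fragments, and the depth of each library, are not given in the sources used here.

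From these values, those genes whose mean over the 6 libraries reached 0.5 FPKM were compared between groups with limma 3.58.1 (R 4.3.3) on log2(FPKM + 1), with a trend on the mean, two-sided, and Benjamini-Hochberg adjustment over all 14855 tested genes. Calls are adjusted p under 0.05. The procedure was tested on simulated data. Alternatives changed the pseudocount, filter, scaling, variance moderation or replicate block, or left out 1 library. Gene positions are from GENCODE M21 and promoters from RefSeq, both on GRCm38. Shared 50-base words are those of each member's longest protein-coding transcript that occur in any transcript of another gene.

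The rule for the members uses symbols and not values, but that rule and the lists were drawn up with earlier results of these data known. All tested members are named. Of each list, up to 4 called genes with the smallest adjusted p, fixed defining markers and partner genes could be named. No correlation among members is given, since the libraries form 2 sets of 3.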

Additional observations from a re-analysis of the deposited data

How the results depend on the processing

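Of the 27 called members, 19 kept their call in all 15 alternatives that tested them, 8 lost it in at least 1, and none changed direction. Rescaling libraries to equal sums without Sftpc and Scgb1a1 gave 1148 genes called higher and 3438 lower (members 14 and 13), with the share of higher calls at 25% instead of 51.1%. It turned the log2 fold changes, none of them called, of Cd209c to -0.0052, Clec4a1 to -0.0443, Clec16a to -0.0995, Card9 to -0.0633, Pf4 to -0.1036 and Pecam1 to -0.1476. The cause was not tested. With no filter on low values, 16 members were called higher and 8 lower, and Ly75, Mrc2, Clec9a, Clec12a, Clec2d and Cd209f were not called. Of other named genes, the calls of Sftpa1, Asgr1, Asgr2, S100a8, Csf2, Il1b, Tnf, Flt4, Klrb1a and Treml4 also ended (limma adjusted p = 0.126 for Sftpa1, 0.112 for Asgr1, 0.0554 for Asgr2 and 0.0716 for S100a8).

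Deviations of same-numbered libraries of the 2 groups from their group means had correlations of -0.0539, 0.0139 and 0.1629. With 3 libraries per group, the deviations within a group depend on each other. These correlations therefore cannot decide whether the numbers pair the mice. With a replicate block, 1890 genes were called higher and 1651 lower, and 14 members higher and 7 lower.

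Leaving out 1 library at a time, 1088 to 1695 genes were called higher and 1141 to 1709 lower, with the lowest count of each without wild type replicate 3. Without Fra-2tg replicate 1, 1158 genes were called higher. Members called higher numbered 13 to 17 and lower 6 to 9, with 6 lower without wild type replicate 3 and 7 without wild type replicate 1. Of genes that were not called, the log2 fold change of Colec12 ran from -0.085 to 0.09, the log2 fold change of Clec4a1 from -0.0075 to 0.1495, the log2 fold change of Clec16a from -0.0187 to 0.0728 and the log2 fold change of Marco from -0.0131 to 0.3174. The log2 fold change of Pf4 ran from -0.0395 to 0.1926, and the log2 fold change of Pecam1 from -0.0332 to 0.0475. With depth unknown, the precision of members near 0.5 FPKM cannot be stated.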

Other observations

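Other genes with a C-type lectin-like domain, outside the receptors above, also changed in both directions: of 32 in the table, 26 were tested, 8 were called higher and 7 lower. Among all tested genes 13.6% were called higher and 13.0% lower. The list was not tested as a set. Some receptors of natural killer cells were among those that fell. Klra8 (Ly49H) was 2.13, 1.98 and 1.51 FPKM across the wild-type mice, against 0.117, 0 and 0 FPKM across the transgenic mice (limma adjusted p = 0.00110), and Klrc2 (NKG2C) was 2.11, 1.49 and 1.92 FPKM across the wild-type mice, against 0, 0.256 and 0.150 FPKM across the transgenic mice (limma adjusted p = 0.00170). In both, at least 1 transgenic library is listed at 0, so no ratio is given. Klrk1 (NKG2D) fell to 0.347 of its wild-type mean (limma adjusted p = 0.00436). The related Klra2, Klrc1, Klrd1 and Klrg1 were tested and not called (limma adjusted p = 0.469, 0.877, 0.0874 and 0.283). The mean of Klrg1 was 1.35 times wild type. These genes are named outside the rule for named genes.

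The surfactant collectins, which bind microbial sugars in the airspace, went the other way, and they and the liver-type asialoglycoprotein receptors are named after their values were seen. Sftpa1 rose 1.70-fold from 1512 FPKM and Sftpd 1.66-fold from 682 FPKM (limma adjusted p = 0.0133 and 0.00523). The Sftpa1 call was lost with no filter on low values (limma adjusted p = 0.126). Asgr2 was 0.824, 2.37 and 0.587 FPKM across the wild-type mice, against 3.99, 5.68 and 6.45 FPKM across the transgenic mice, a rise of 4.27-fold (limma adjusted p = 0.0112) that was not called with no filter (0.0554). Its partner subunit Asgr1 was at 0.379 times wild type (limma adjusted p = 0.0343), and that call was lost without wild type replicate 2 or 3 and without Fra-2tg replicate 1 or 3 (limma adjusted p = 0.0758 to 0.112).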
